A study of Mus musculus with 6 samples.

Results

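The 6 genes described here build the contacts between neighbouring endothelial cells, the cells that line blood and lymphatic vessels: Cdh5, Cldn5, Esam, Pecam1, Jam2 and Jam3. They were taken by symbol from the deposited table, which held 18422 genes and all 6 of them. The study sequenced polyadenylated RNA from whole ear skin of mice on day 21 after birth. The 3 ecko libraries came from mice with a tamoxifen-induced, endothelial deletion of Vegfr2 (official symbol Kdr), and the 3 control libraries from littermates, labelled as tamoxifen-treated too. The gene whose promoter drove the deletion, the number of pups behind a library and the day on which tamoxifen was started in these mice are not given in the sources used here. The p-values measure only the spread between these samples.

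VE-cadherin, the product of Cdh5, binds its own kind on the next cell and is tied to actin by catenins, which makes it the core of the endothelial adherens junction. Claudin-5, the product of Cldn5, seals the tight junction of vessels. The other 4 members encode immunoglobulin-type adhesion proteins: PECAM1 (CD31), ESAM, JAM-B (from Jam2) and JAM-C (from Jam3). PECAM1, VE-cadherin and VEGFR2 are known to act together when endothelial cells sense blood flow.

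The endings of 4 members show how they are anchored. Each line gives the last 27 coding bases and the stop codon, from the GENCODE M21 transcripts on GRCm38, with the last 4 codons in capitals. These codons encode the tail by which claudin-5 and the JAMs dock to the scaffold proteins ZO-1 or PAR3 and by which ESAM binds MAGI-1, and the genes of those scaffolds are described further below.
Cldn5 (chr16:18777623-18777652, plus strand): ggcgattacgacaagAAGAACTATGTCtaa
Esam (chr9:37537753-37537782, plus strand): gcacagagtcaggctGGGTCTCTTGTGtga
Jam2 (chr16:84822790-84822819, plus strand): ttcaagcacacaaaaTCCTTTATAATTtaa
Jam3 (chr9:27098366-27098395, minus strand): ttcagacacaaatcgTCCTTTGTTATCtga
In the 12 bases in capitals, Jam2 and Jam3 shared 9, and the other pairs shared 1 to 5.

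Libraries held 17255416 to 18054696 estimated read counts, and 14866 genes were tested. Kdr, the targeted gene, had 58, 37 and 42 counts in ecko 1 to 3 and 475, 511 and 595 in controls 1 to 3, so the labels held in every library. Levels are given as CPM, the count scaled to a common library total. Calls were made by the quasi-likelihood test of edgeR at a p under 0.05 after Benjamini-Hochberg adjustment. Over all genes 160 fell and 102 rose in ecko skin, which is 1.08% and 0.686% of those tested, or 1.76% in either direction. Reads from 4 Y-linked genes marked library 3 of each group as female and the others as male.

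Of the 6 junction genes, 4 fell in ecko skin and none rose, against 1.08% of all genes tested that fell, 0.686% that rose and 1.76% called in either direction. Cdh5, Cldn5, Esam and Pecam1 passed the test, and Jam2 and Jam3 did not. Without ecko 1 or ecko 2 the count was 2, since the calls of Cldn5 and Esam ended. DESeq2 and limma-voom also called 4 lower and 0 higher, and at an unadjusted edgeR p under 0.05 there were 6 lower and 0 higher. At that unadjusted threshold, 7.95% of all genes tested were lower and 7.41% higher, the shares against which the unadjusted counts of the lists further on are to be read. The log2 fold changes of ecko over control lay between -0.93 and -0.20, with a median of -0.63, where the median over all genes tested was 0.00. In 5 of the 6 genes every ecko library lay below every control, which held for 10.8% of all genes tested, and in no member did every ecko library lie above every control (10.2% of all genes tested). In whole tissue, fewer endothelial cells and less RNA per endothelial cell cannot be told apart.

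**Figure D1:**
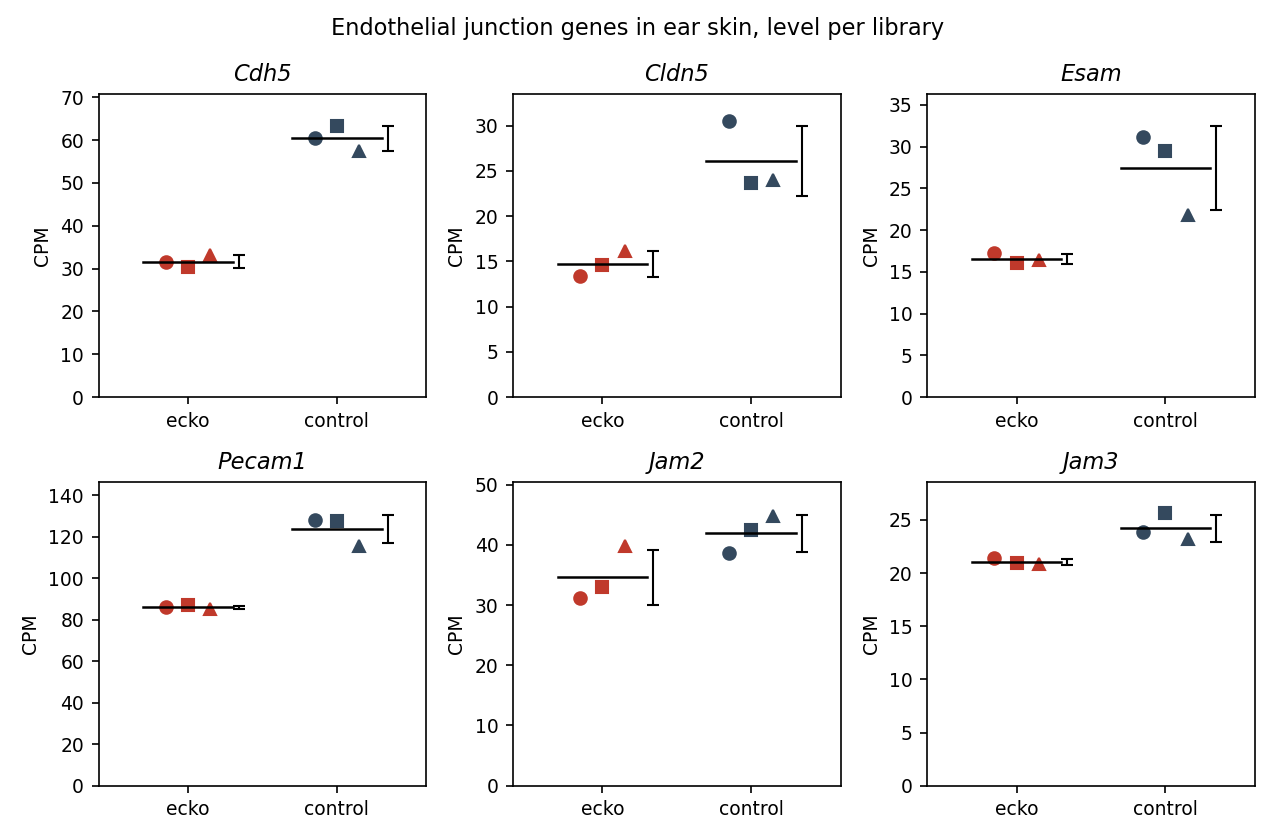
Level of each of the 6 junction genes in CPM (vertical axes, starting at 0) in the 3 ecko (red) and 3 control (dark) libraries; circles, squares and triangles are libraries 1, 2 and 3, lines are means and bars to their right are SD. Ecko libraries lie below all controls in every panel but Jam2, where ecko 3 at 39.8 CPM lies above control 1 at 38.6 CPM.

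The adherens junction gene had the largest change of the 6. Cdh5 (Entrez 12562, chromosome 8, 104101613 to 104144504 in GRCm38.p6) had 31.5, 30.3 and 33.2 CPM in ecko 1 to 3, against 60.6, 63.2 and 57.4 CPM in controls 1 to 3. The groups were far apart, with 24.2 CPM between the highest ecko and the lowest control library. Cdh5 averaged 31.7 ± 1.48 CPM in ecko and 60.4 ± 2.87 CPM in control skin (SD, n = 3 each), so 52.4% of the control level was left. The log2 fold change was -0.93 (SE 0.07, 95% interval -1.08 to -0.78, edgeR adjusted p = 0.000454). Its p was the smallest but 2 of all genes tested, at rank 3.

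The tight junction gene fell as well. Cldn5 (Entrez 12741, chromosome 16, 18776847 to 18778262) had 13.3, 14.5 and 16.2 CPM in ecko 1 to 3, against 30.5, 23.6 and 24.0 CPM in controls 1 to 3. Control 1 stood above the other controls, and the groups did not overlap. The means were 14.7 ± 1.42 CPM in ecko and 26.1 ± 3.88 CPM in controls (SD, n = 3 each), with a log2 fold change of -0.83 (SE 0.12, 95% interval -1.10 to -0.55, edgeR adjusted p = 0.0108). The change was -0.76 without ecko 1 and -0.82 without ecko 2, and either omission ended the call (edgeR adjusted p = 0.0578 and 0.0675).

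Cldn5 was the 1 member with an entry among the upstream sequences from RefSeq (GRCm38.p6). It is shown for that reason, and a link between this sequence and the change of Cldn5 was not tested. The 250 bases before its start, at chr16:18776597-18776846 on the plus strand, have the CCAAT box in capitals on either strand (CCAAT or ATTGG).
Cldn5 upstream: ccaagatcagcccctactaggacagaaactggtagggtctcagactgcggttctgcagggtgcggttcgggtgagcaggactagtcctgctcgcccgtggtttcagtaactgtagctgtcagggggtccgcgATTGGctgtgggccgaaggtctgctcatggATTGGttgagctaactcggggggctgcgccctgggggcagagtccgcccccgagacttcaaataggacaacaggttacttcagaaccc
The window held 2 CCAAT boxes, and at least 1 was found in 33.8% and at least 2 in 10.1% of the 32851 upstream windows of the same length. It also held 1 GC box (GGGCGG or CCGCCC), as at least 1 did in 32.7% of windows. The ETS core (GGAA or TTCC) was not among its letters, and 93.4% of windows held it. The SOX core (ACAAT or ATTGT) and the TATA box (TATAAA or TTTATA) were not found either, against 27.7% and 12.4% of windows that held them. The searched motifs share no letters of a match in this window.

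Among the immunoglobulin-type adhesion genes, Esam had the largest log2 fold change. ESAM is found at the tight junctions of endothelial cells and on platelets. Esam (Entrez 69524, chromosome 9, 37528089 to 37538319) had 17.2, 16.1 and 16.4 CPM in ecko 1 to 3, against 31.2, 29.4 and 21.8 CPM in controls 1 to 3. The ecko libraries were close together, and control 3 was the low control. The means were 16.6 ± 0.590 CPM in ecko and 27.5 ± 5.00 CPM in controls (SD, n = 3 each), with a log2 fold change of -0.73 (SE 0.13, 95% interval -1.02 to -0.44, edgeR adjusted p = 0.0266). The call rested on all libraries but control 3. Without control 1, control 2, ecko 1, ecko 2 or ecko 3 the edgeR adjusted p was 0.0660, 0.0872, 0.0920, 0.111 or 0.1, and without control 3 it was 0.00228 at a log2 fold change of -0.87. The summed level of 6 platelet markers was 37.8 to 41.6 CPM in ecko and 37.1 to 44.4 CPM in controls.

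Pecam1 encodes CD31, an adhesion protein of the whole endothelial border that leukocytes and platelets also carry. Pecam1 (Entrez 18613, chromosome 11, 106654213 to 106715281) had 85.9, 86.8 and 85.3 CPM in ecko 1 to 3, against 128, 127 and 116 CPM in controls 1 to 3. The ecko libraries differed by less than 2 CPM and lay 28.9 CPM below the lowest control. The means were 86.0 ± 0.758 CPM in ecko and 123.7 ± 6.93 CPM in controls (SD, n = 3 each), with a log2 fold change of -0.52 (SE 0.06, 95% interval -0.66 to -0.39, edgeR adjusted p = 0.00393). The call for Pecam1, like that for Cdh5, was kept under all 16 alternatives. The summed level of 5 leukocyte markers was 259 to 273 CPM in ecko and 181 to 244 CPM in controls, so it lay higher where Pecam1 was lower. No marker of any cell type read here was at 0 in all libraries, and the part of such cells in the results was not tested.

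The JAM genes had the smallest differences. JAM-B and JAM-C bind each other across the cell border, and JAM-C is also made by Schwann cells and, in humans, platelets. Jam2 (Entrez 67374, chromosome 16, 84774123 to 84826380) had 31.1, 33.04 and 39.8 CPM in ecko 1 to 3, against 38.6, 42.4 and 44.8 CPM in controls 1 to 3. The groups overlapped, and the female library was the highest of its group in both. Jam2 averaged 34.6 ± 4.54 CPM in ecko and 41.9 ± 3.11 CPM in control skin (SD, n = 3 each). The log2 fold change was -0.28 (SE 0.10, 95% interval -0.50 to -0.06, edgeR adjusted p = 0.220), and it was -0.34 in the male libraries alone (edgeR adjusted p = 0.148) and -0.28 with a sex term (edgeR adjusted p = 0.101).

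Jam3 (Entrez 83964, chromosome 9, 27097384 to 27155421) had 21.4, 20.9 and 20.9 CPM in ecko 1 to 3, against 23.8, 25.7 and 23.2 CPM in controls 1 to 3. All ecko libraries lay below all controls, by at least 1.81 CPM. The means were 21.1 ± 0.286 CPM in ecko and 24.2 ± 1.28 CPM in controls (SD, n = 3 each), with a log2 fold change of -0.20 (SE 0.08, 95% interval -0.38 to -0.03, edgeR adjusted p = 0.260). The intervals of both JAM genes, which are not adjusted for the number of genes, lay below 0. The antisense gene Gm48796 overlaps 589 exon bases of Jam3, and without strand information its reads could not be told from those of Jam3. The 4 Schwann cell markers summed to 761 to 834 CPM in ecko and 757 to 848 CPM in controls. No exon of another gene overlapped the other 5 members, and all 36 estimated counts of the 6 members were whole numbers.

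**Figure D2:**
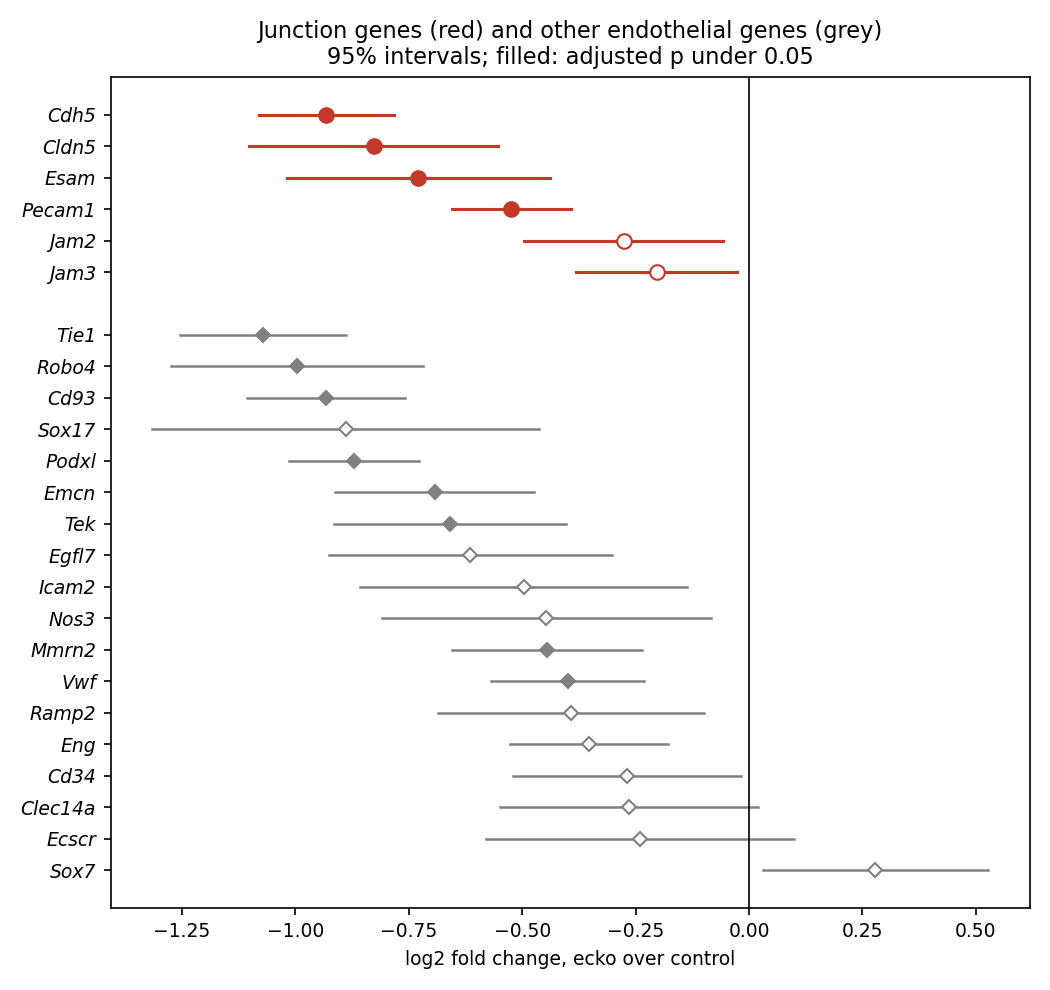
Log2 fold change of ecko over control (horizontal axis) with 95% intervals for the 6 junction genes (red circles) and 18 other endothelial genes (grey diamonds); filled symbols have an adjusted p under 0.05. Cdh5 at -0.93 lies among the lowest values of both groups, and Jam2 at -0.28 and Jam3 at -0.20 are open symbols near 0.

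Levels of different genes were compared per kilobase of exon. In ecko skin, Pecam1 led at 20.8 ± 0.183 CPM per kb (SD, n = 3), followed by Jam3 at 10.8 ± 0.147, Cldn5 at 10.4 ± 1.00, Esam at 8.88 ± 0.316, Cdh5 at 7.92 ± 0.370 and Jam2 at 5.73 ± 0.751 CPM per kb. Jam3 and Cldn5 overlapped in ecko skin, and the other neighbours in that order did not. In control skin, Pecam1 led at 29.9 ± 1.68 CPM per kb (SD, n = 3), followed by Cldn5 at 18.4 ± 2.74, Cdh5 at 15.1 ± 0.719, Esam at 14.7 ± 2.68, Jam3 at 12.5 ± 0.661 and Jam2 at 6.94 ± 0.515 CPM per kb. There Esam overlapped with Cdh5 and Jam3, and narrowly with Cldn5 (Esam 16.72 in control 1, Cldn5 16.68 CPM per kb in control 2). Jam3 thus stood next to Pecam1 in ecko and next to last in control skin. Jam2 depends on the length used: with its longest coding transcript it came to 7.92 CPM per kb in ecko, level with Cdh5, and 9.60 CPM per kb in controls, still the lowest.

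To compare the changes of the members with each other, the log2 ratio of each of the 15 pairs was taken within each library. In 7 of the 15 pairs the ecko and control ratios did not overlap. The pairs share members and so are not independent. The groups did not overlap for 21.0% of single genes tested, but that share is of levels, and none was computed for ratios. The 7 pairs were Cdh5 over Pecam1, Jam2 and Jam3, Cldn5 over Jam2 and Jam3, Esam over Jam3, and Pecam1 over Jam3. The ratio with the largest difference was Cdh5 over Jam3, at 0.59 ± 0.07 log2 units in ecko and 1.32 ± 0.02 log2 units in controls (SD, n = 3 each; difference -0.73). In a two-sided exact permutation test over libraries it had p = 0.1, the smallest that 3 against 3 allows (adjusted p = 0.214 over the 15 pairs), so no pair could pass. Cdh5 over Cldn5 differed by -0.11 log2 units (exact permutation p = 0.6) and Jam2 over Jam3 by -0.08 (exact permutation p = 0.5), both within the spread of the libraries.

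The members were also set against 18 other genes of endothelial cells in the same libraries. The mean log2 level of those 18 genes was 0.54 lower in ecko than in control skin. Of the 18, 8 fell and none rose by edgeR, where 1.08% of all genes tested fell and 0.686% rose. At an unadjusted edgeR p under 0.05 there were 15 lower and 1 higher, against 7.95% and 7.41% of all genes tested. DESeq2 called 11 lower and 0 higher, and the median log2 fold change of the 18 was -0.47. Without ecko 1 or ecko 2 the 8 became 4, and without control 2 or ecko 3 they became 5. The 4 with the smallest p were Podxl, a surface sialomucin gene (-0.87, SE 0.06), the receptor kinase gene Tie1 (-1.07, SE 0.08), Cd93, a lectin-like receptor gene (-0.93, SE 0.08), and the guidance receptor gene Robo4 (-0.996, SE 0.12). Markers of lymphatic endothelium and of mural cells were lower too. The 6 lymphatic endothelial markers summed to 186 to 199 CPM in ecko and 271 to 339 CPM in controls, with Prox1, Ccl21a, Mmrn1 and Flt4 called lower. Without ecko 2, Flt4 alone of these 4 passed (edgeR adjusted p for the others 0.0627 to 0.116), without ecko 1 the calls of Prox1 and Mmrn1 ended (0.0506 and 0.112), and without ecko 3 those of Ccl21a and Mmrn1 (0.0568 and 0.0510). The 6 mural cell markers summed to 439 to 459 CPM in ecko and 572 to 590 CPM in controls, with 2 called lower. These were Rgs5 (-0.82, SE 0.11; 106 CPM in ecko, 188 CPM in controls) and Abcc9 (-0.50, SE 0.09). The call of Abcc9 ended without control 1, control 2, ecko 1 or ecko 2 (edgeR adjusted p 0.0580 to 0.0900). Kcnj8, Pdgfrb, Notch3 and Cspg4 did not pass (-0.61, -0.19, -0.12 and -0.03).

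Relative to the mean of these 18 genes, Cdh5 was lower in all ecko libraries than in any control and Jam3 higher. No share over other genes was computed for such ratios. Among the 18, Tie1, Robo4 and Cd93 had log2 fold changes at least as low as that of Cdh5, and Sox7 was above 0 (0.28, SE 0.11). The log2 ratio of Cdh5 was 0.83 ± 0.08 in ecko and 1.22 ± 0.03 in controls (SD, n = 3 each; difference -0.40, exact permutation p = 0.1). The log2 ratio of Jam3 was 0.24 ± 0.01 in ecko and -0.09 ± 0.06 in controls (SD, n = 3 each; difference 0.33, exact permutation p = 0.1). For both, the p is the smallest the design allows and the adjusted p over the 6 members was 0.3. For Pecam1 the log2 ratio was 2.27 ± 0.01 in ecko and 2.26 ± 0.03 in controls (difference 0.01, exact permutation p = 0.5). Cldn5, Esam and Jam2 had differences of -0.29, -0.18 and 0.25 log2 units, with overlapping libraries.

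**Figure D3:**
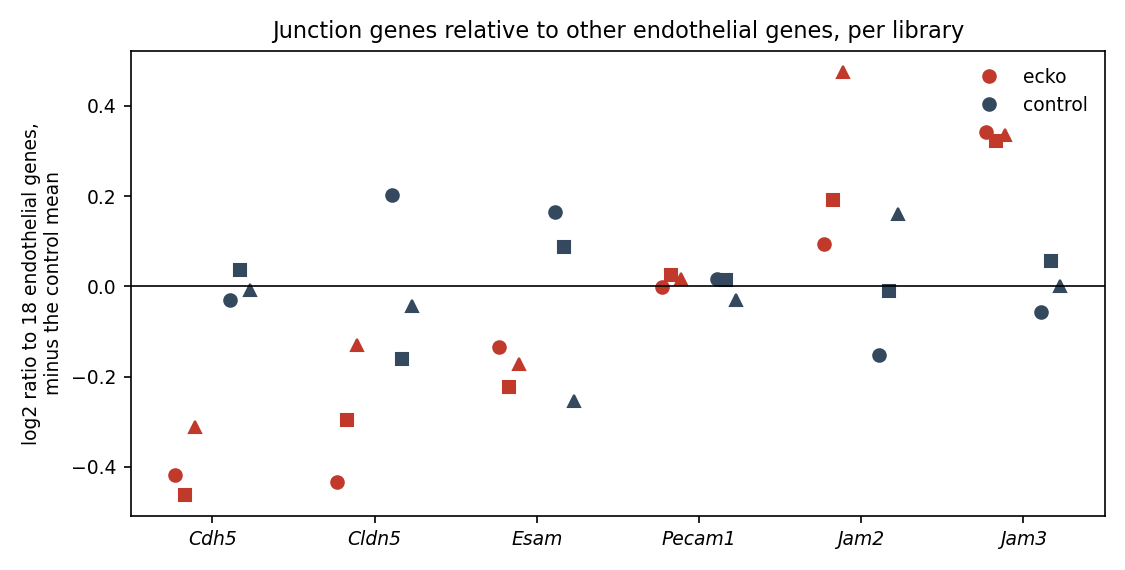
Log2 ratio of each junction gene to the mean of 18 other endothelial genes in the same library, minus the mean of the controls (vertical axis), in ecko (red) and control (dark) libraries; circles, squares and triangles are libraries 1, 2 and 3. Cdh5 lies 0.40 lower and Jam3 0.33 higher in ecko on average without overlap, and Pecam1 differs by 0.01.

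The members are joined to the cell interior by partner proteins. Of 7 VE-cadherin complex genes none passed (edgeR, with 0 higher and 1 lower at an unadjusted p under 0.05). DESeq2 called 1 lower, Ptprb, which encodes the endothelial phosphatase VE-PTP. Ptprb had 40.0 ± 2.74 CPM in ecko and 58.8 ± 10.3 CPM in controls (SD, n = 3 each), with a log2 fold change of -0.56 (SE 0.12, edgeR adjusted p = 0.0528). Ptprb passed under 6 of the 16 alternatives and not under the other 10. Besides DESeq2 and a threshold of 0.1, it passed without control 3 (-0.69, edgeR adjusted p = 0.00302) and in the male libraries alone (0.00873). The others were upper-quartile factors (edgeR adjusted p = 0.0474) and no low-count filter (0.0394). The catenin genes are used by keratinocytes as well, and Ctnnd1, for p120-catenin, had a log2 fold change of 0.12 (SE 0.06).

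Of 10 genes that stabilise endothelial junctions through the GTPase RAP1 or the CCM proteins, 1 fell and none rose by edgeR. Over all genes tested 1.08% fell and 0.686% rose. At an unadjusted edgeR p under 0.05, 3 of the 10 were lower and 1 higher, against 7.95% and 7.41% of all genes tested. The gene that fell was Rasip1, a RAP1 effector of endothelial cells, at 10.7 ± 1.57 CPM in ecko and 17.8 ± 1.57 CPM in controls (SD, n = 3 each). Its log2 fold change was -0.73 with SE 0.12 (edgeR adjusted p = 0.0217). The call ended without control 1, control 2, ecko 2 or ecko 3 (edgeR adjusted p = 0.0584, 0.0749, 0.0862 and 0.0704).

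The scaffold genes to which the tails shown above dock did not pass. These were Tjp1, for ZO-1 (log2 fold change 0.09, SE 0.08), Pard3, for PAR3 (0.03, SE 0.06), and Magi1, for MAGI-1 (-0.07, SE 0.08). None of 12 tight junction scaffold and MARVEL genes was called by edgeR, DESeq2 or limma-voom, and 0 had an unadjusted edgeR p under 0.05. Their median log2 fold change was 0.00, and the smallest p belonged to Tjp3, for ZO-3 (-0.14, SE 0.07), and Ocln, for occludin (0.12, SE 0.08). Of the 7 Par polarity genes 0 passed by any of the 3 tools, with 1 higher at an unadjusted edgeR p under 0.05. Prkci, an atypical protein kinase C gene, had 0.20 (SE 0.07) and Pard6b 0.22 (SE 0.14).

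Among relatives of the members that epithelia also use, 2 rose and none fell, where 0.686% of all genes tested rose and 1.08% fell. Of 18 other claudins, 15 were in the table and 11 tested, of which 1 rose and none fell (edgeR; 3 higher and 1 lower at an unadjusted p under 0.05). The 4 keratinocyte markers summed to 24420 to 27010 CPM in ecko and 21560 to 22940 CPM in controls. Of these Krt1 rose, and its call ended without control 1, control 2, ecko 1, ecko 2 or ecko 3 (edgeR adjusted p 0.0689 to 0.133). Cldn2, a pore-forming claudin gene, had 14.0, 9.52 and 12.3 CPM in ecko 1 to 3, against 3.98, 6.72 and 6.97 CPM in controls 1 to 3 (log2 fold change 1.02, SE 0.21, edgeR adjusted p = 0.0452). Its call ended without control 1, control 2, ecko 1, ecko 2 or ecko 3 (edgeR adjusted p 0.0686 to 0.173), with a sex term (0.0528) and in limma-voom (0.0546). Cldn11 went the other way, at 1.695 ± 0.377 CPM in ecko and 3.39 ± 0.866 CPM in controls (SD, n = 3 each). Its log2 fold change of -0.999 (SE 0.25) was not called (edgeR adjusted p = 0.101). Of 6 tested JAM and CTX family genes, Cxadr, the coxsackievirus and adenovirus receptor gene of epithelial tight junctions, rose by 0.35 on the log2 scale (SE 0.06, edgeR adjusted p = 0.0244), and that call ended without control 2, ecko 1, ecko 2 or ecko 3 (edgeR adjusted p 0.0717 to 0.131). F11r, the gene of JAM-A, was at 77.7 ± 4.23 CPM in ecko and 79.0 ± 1.04 CPM in controls (SD, n = 3 each).

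Nectin and desmosome genes gave no calls. Of 6 nectin genes 0 passed by edgeR, DESeq2 or limma-voom, with 0 at an unadjusted edgeR p under 0.05 (Nectin4 0.10, SE 0.08, and Pvr 0.11, SE 0.09). Of 14 epithelial cadherin and desmosome genes 0 passed by the same 3 tools, and 4 had an unadjusted edgeR p under 0.05, all higher, as were 7.41% of all genes tested at that threshold. The desmoglein gene Dsg3 had 0.27 (SE 0.07) and the P-cadherin gene Cdh3 0.27 (SE 0.08), and the median of this list was 0.11.

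Of 9 tested binding partners of PECAM1 and the JAMs, 1 fell and none rose by edgeR, where 1.08% of all genes tested fell and 0.686% rose. At an unadjusted edgeR p under 0.05 there were 1 lower and 0 higher, against 7.95% and 7.41% of all genes tested. Cd38, an ectoenzyme gene whose product binds PECAM1, was low throughout, at 2.51 ± 0.529 CPM in ecko and 4.59 ± 0.144 CPM in controls (SD, n = 3 each), a log2 fold change of -0.86 with SE 0.18 (edgeR adjusted p = 0.0466). Leaving out any library ended its call (edgeR adjusted p 0.0612 to 0.164), as did a sex term (0.0504). The integrin genes Itgam and Itgb2, for the leukocyte receptor of JAM-C, had 0.27 (SE 0.16) and 0.22 (SE 0.20).

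Among 12 transcription factor genes tied to endothelial junction genes, 3 fell and none rose by edgeR, where 1.08% of all genes tested fell and 0.686% rose. At an unadjusted edgeR p under 0.05 there were 5 lower and 0 higher, against 7.95% and 7.41% of all genes tested. Epas1, for HIF-2 alpha, was at 112 ± 3.91 CPM in ecko and 161 ± 5.09 CPM in controls (SD, n = 3 each), a log2 fold change of -0.53 with SE 0.06 (edgeR adjusted p = 0.00253). The SoxF factor gene Sox18 was at 8.77 ± 0.700 CPM in ecko and 16.8 ± 0.780 CPM in controls (SD, n = 3 each), a log2 fold change of -0.93 with SE 0.10 (edgeR adjusted p = 0.00256). Ets1 fell by 0.31 on the log2 scale (SE 0.06, edgeR adjusted p = 0.0450), and its call ended without control 2, control 3, ecko 1, ecko 2 or ecko 3 (edgeR adjusted p 0.0628 to 0.190) and in limma-voom (0.0564). The ETS factor genes Erg (-0.17, SE 0.12) and Fli1 (-0.17, SE 0.13) did not pass.

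**Figure D4:**
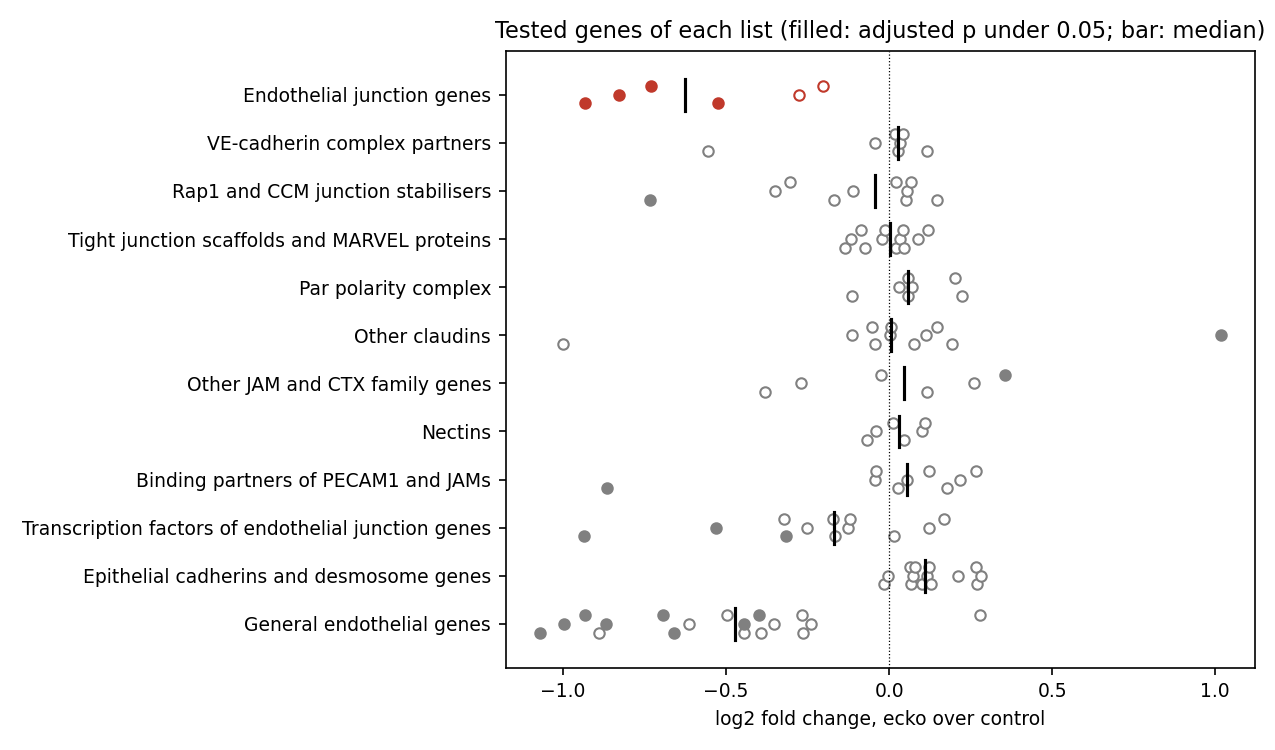
Log2 fold change of ecko over control (horizontal axis) for the tested genes of each list, with filled circles for an adjusted p under 0.05 and a bar at the median. The junction genes have a median of -0.63 and the general endothelial genes -0.47, and the medians of the scaffold, polarity, claudin, nectin and desmosome lists lie between 0.00 and 0.11.

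Patterns over the 6 libraries were compared by the root mean square distance of mean-centred log2 CPM. Candidates were 13815 tested genes with a mean of at least 1 CPM and a symbol in the style of an approved gene name. The 6 members were left out, so none could be found as a neighbour of another. The 5 genes closest to each called member were as follows. For Cdh5 they were Sox18, Adgrf5, Hey1, Rasl10a and Aldh1l1 (distances 0.06 to 0.09 log2 units, Pearson's r 0.98 to 0.99). For Cldn5 they were Scarb1, Klhl33, Aldh1l1, Sept4 and Myl6b (0.08 to 0.09, r 0.98 to 0.99). For Esam they were Rasgrp2, Kank3, Shisa4, Sh2d3c and Carns1 (0.07 to 0.11, r 0.97 to 0.99), and for Pecam1 they were Afap1l1, Shank3, Dysf, Plvap and Epas1 (0.04 to 0.06, r 0.98 to 0.99). Of these neighbours, Rasl10a, Rasgrp2 and Shisa4 were not called (edgeR adjusted p = 0.0798, 0.0812 and 0.0528), and the others fell. Every r rests on the same 6 libraries in 2 groups, so any gene that separates the groups has a high one.

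Markers of further cell types were read from the same libraries. Sums were lower in ecko, narrowly but without overlap, for the 4 adipocyte markers (67.4 to 95.8 CPM in ecko, 96.3 to 128 CPM in controls). Of these Adipoq fell, where 1.08% of all genes tested fell. At an unadjusted edgeR p under 0.05 there were 3 lower and 1 higher, against 7.95% and 7.41% of all genes tested. The higher one, Lep (0.88, SE 0.32), was not called. Lep had 16.65 ± 3.53 CPM in ecko and 9.05 ± 5.16 CPM in controls (SD, n = 3 each). Sums were also lower without overlap for the 4 skeletal muscle markers (3291 to 3765 CPM in ecko, 3921 to 6001 CPM in controls). None of those was called by edgeR, DESeq2 or limma-voom, with 4 lower at an unadjusted edgeR p under 0.05. How often sums of other genes lie apart was not computed. The call of Adipoq ended without control 1, control 2, ecko 1 or ecko 3 (edgeR adjusted p 0.0577 to 0.116). Sums overlapped for the 4 fibroblast markers (15080 to 17760 CPM in ecko, 16190 to 20040 CPM in controls) and the 5 red cell markers (763 to 1377 CPM in ecko, 1129 to 2411 CPM in controls).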

How the data were processed

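RNA was taken with Trizol from snap-frozen ear skin, and poly(A) RNA was fragmented and copied from random primers, per the labels' protocols. The authors deposited unscaled expected counts, and 10.4% of these were not whole. RSEM 1.3.1, Bowtie2 2.4.5 and HISAT2 2.2.1 and the build GRCm38.p6 are listed, without roles, per the submitters' processing notes. The annotation release and strand setting are not given in the sources used here.

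Values were rounded to whole numbers. filterByExpr by group (minimum count 10) removed 3556 genes, and TMM scaled the libraries. The main test was edgeR 4.0.16 (R 4.3.3; glmQLFit, glmQLFTest) on the 6 libraries by genotype, a Benjamini-Hochberg threshold of 0.05 over all genes tested, and a biological coefficient of variation of 8.80%. The SE was the log2 fold change divided by the square root of F, and 95% intervals used the test's degrees of freedom. Log2 ratios used a prior count of 0.5. Exon lengths were unions of GENCODE M21 basic exons, and positions came from RefSeq. The test was checked on simulated data. Within groups, counts differed by 4.89 to 14.8 times the sampling variance, so no library was a duplicate. Libraries with at least 500 reads from Ddx3y, Uty, Kdm5d and Eif2s3y were taken as male.

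Members and lists were chosen with earlier results of these data known. Named are the members, Kdr, up to 4 called genes of each list by smallest p (or, with none, the 2 with the smallest p) and the 5 nearest patterns. F11r, Cldn11, Tjp1, Pard3, Magi1, Sox7, Itgam, Itgb2, Erg, Fli1, Mmrn2 and the single markers were chosen after their values were seen. Alternatives were RLE and upper-quartile factors, 2 other filters, DESeq2 1.42.0, limma-voom 3.58.1, a replicate block, a term for sex, leaving out single libraries, a threshold of 0.1 and, for ratios, a prior count of 2. The male libraries alone were added after the data were seen. The replicate numbers were not used as pairs in the main test. Figures used matplotlib 3.10.9.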

Additional observations from a re-analysis of the deposited data

How the results depend on the processing

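The counts over all genes moved most. Lower genes numbered 160 and higher genes 102 in the main test. With each library left out in turn they ranged from 34 to 242 lower and from 22 to 165 higher. DESeq2 gave 195 higher, a threshold of 0.1 gave 269 lower and 182 higher, and the male libraries alone, chosen after the data were seen, gave 91 lower. The 4 junction genes that fell stayed 4 under the other scalings, filters and tools, the sex term and the male libraries, and ranged from 2 to 4 with a library left out. No junction gene rose under any of the 16 alternatives. Log2 fold changes with a library left out ranged from -0.97 to -0.90 for Cdh5, -0.90 to -0.69 for Cldn5, -0.87 to -0.62 for Esam, -0.57 to -0.49 for Pecam1, -0.39 to -0.21 for Jam2 and -0.23 to -0.16 for Jam3. The ratio of Jam2 over Jam3 turned to 0.000358 without control 3 and 0.00501 without ecko 1, within a range of -0.19 to 0.01, and that of Pecam1 over the 18 endothelial genes turned to -0.00215 without control 3, within a range of -0.00215 to 0.0215. Deviations of same-numbered libraries were weakly correlated (0.06, 0.07 and 0.16). Library 3 was the female one in both groups, and whether the numbers pair the samples was not settled. With the number as a replicate block 63 genes were higher, 4 junction genes fell, and the calls of Cldn2, Cxadr, Cd38, Ets1, Mmrn2, Krt1, Sept4 and Myl6b ended. With 3 libraries a group, a permutation test over libraries cannot pass, and the counts of 230 to 2236 per member and library bound counting error only.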
